A study of Mus musculus with 36 samples.

Results

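The interleukin-1 and interleukin-18 system was followed in mouse monocytes, macrophages and dendritic cells through 10 genes: the ligands Il1a, Il1b and Il18, the inhibitors Il1rn, Il18bp and Il1r2, the receptor chains Il1r1 and Il1rap, and the caspase genes Casp1 and Casp4. Members were the non-control probes of the array that carry one of these gene names. All 10 genes were found, through 18 probes, among 27597 genes on the array, and all 10 passed the filter on dim probes, as did 17605 to 17606 genes in each comparison. Expression was measured on 36 single-colour arrays, 3 for each of 12 groups. Levels are log2 signals relative to the 75th percentile of the same array, so a level of 0 is a probe as bright as that percentile.

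The study asked about IFN-γ and iNOS in regulatory macrophages, called Mreg, which are intended to prolong graft survival. Mreg cultures were kept in 10% human AB serum, 10% FCS and 5 ng/ml M-CSF. Within them, Mreg_+LPS received 25 ng/ml IFN-γ and 100 µg/ml LPS, Mreg received 25 ng/ml IFN-γ, and Mreg_no IFN-γ received nothing. Mreg_unpurified received the same IFN-γ but started from adherent mononuclear cells of bone marrow, spleen and blood. The other macrophages were kept in 10% FCS and 20 ng/ml M-CSF. Among them, MΦ_M1 received 25 ng/ml IFN-γ and 100 µg/ml LPS, MΦ_M2b received 25 ng/ml IFN-γ on dishes coated with human immunoglobulin, MΦ_IFN-γ received 25 ng/ml IFN-γ, MΦ_M2a received 20 ng/ml IL-4, MΦ_M2c received 1e-07 M dexamethasone, and MΦ_M0 received nothing. Mo-DC grew in 10% FCS with 20 ng/ml GM-CSF and 20 ng/ml IL-4 and received 25 ng/ml IFN-γ. Stimulation lasted 24 h after 6 days of culture. Every culture other than Mreg_unpurified started from bone marrow cells sorted as Ly6C+ Ly6G- CD11b+, and the Monocytes group was those sorted cells before culture. The labels used here give no strain, age or sex, and they do not say whether arrays of 1 group stem from different animals, so the spread behind each p-value may be technical.

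Interleukin-1α and interleukin-1β act on the same receptor, which is built from the chain encoded by Il1r1 and the accessory chain encoded by Il1rap. The product of Il1rn occupies that receptor without signalling, and the receptor encoded by Il1r2 binds the ligand as a decoy. Interleukin-1β and interleukin-18 are made as inactive precursors that caspase-1 cuts inside inflammasomes, caspase-11 (the product of mouse Casp4) senses cytosolic LPS, and the product of Il18bp neutralises interleukin-18 outside the cell. Transcript levels therefore describe the supply of precursors and partners, not the release of active cytokine.

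For 5 members a probe crossed an exon junction, since its place on the mm8 genome spans more than its 60 bases. Those probes are shown because each reads spliced transcript of the gene it is named for. At least 1 reading frame of each holds no stop codon. For Il18 and Casp1 the printed probe gave the levels reported below. For Il1a, Il1rn and Il1r2 it is the dimmer second probe, and the levels come from a brighter probe that is not printed. The printed Il1r2 probe was well above background on 8 of 36 arrays. The sequences come from the array files and are given 5′ to 3′ in lower case.
Il1a (chr2:128994430-128996164, - strand): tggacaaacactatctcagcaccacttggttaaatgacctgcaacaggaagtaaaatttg
Il18 (chr9:50331595-50333723, + strand): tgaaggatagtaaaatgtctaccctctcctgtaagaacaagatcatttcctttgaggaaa
Il1rn (chr2:24169524-24170544, + strand): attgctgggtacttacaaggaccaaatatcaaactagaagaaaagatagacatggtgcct
Il1r2 (chr1:40056672-40059619, + strand): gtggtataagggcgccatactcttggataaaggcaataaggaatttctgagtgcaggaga
Casp1 (chr9:5306226-5306728, + strand): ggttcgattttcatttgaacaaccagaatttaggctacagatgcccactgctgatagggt

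The 75th percentile used for scaling was 320.0 to 648 intensity units over the 36 arrays, and it was lower in the LPS groups: 327, 320.0 and 343 in Mreg_+LPS, against 534, 441 and 579 in Mreg, and 430, 413 and 436 in MΦ_M1, against 589, 561 and 541 in MΦ_IFN-γ. Its part in the LPS results was not tested beyond quantile normalization, which called 8 and 9 members in these 2 comparisons, as did the 75th percentile. The share of all genes called under quantile normalization is not given here. On each array 50.1% to 57.6% of probes were well above background, and no probe was saturated. Of 9 monocyte and macrophage markers, 8 or 9 were well above background on all 3 arrays of every group. The summed signal of 8 neutrophil markers was 8.06 to 24.6 times the 75th percentile in Mo-DC and 3.25 to 4.54 in MΦ_M0, against 3224 to 3965 in the sorted Monocytes, where all 8 of them and all 4 erythroid markers were well above background on all 3 arrays. Of 7 dendritic markers, 6 were on all 3 arrays in each of Mo-DC, MΦ_IFN-γ and Monocytes, and Cd209a was on no Mo-DC array. The summed signal of the 7 was 262 to 283 in Mo-DC, 118 to 225 in MΦ_M2a and 11.9 to 31.0 in MΦ_IFN-γ. Itgax was the brightest of them in Mo-DC, with a mean level of 7.94. Flt3, Zbtb46, Itgax and Ccr7 were higher in Mo-DC than in MΦ_IFN-γ. Clec9a (1.46 in Mo-DC against 2.82) and Xcr1 (-1.34 against -1.06) were lower. Fewer cells of a type and less RNA per cell cannot be told apart in these bulk samples. Arrays lay on 9 slides of 4. Levels of a group are given below in the order of replicates 1, 2 and 3, and per-slide differences in the order of replicates 2, 3 and 1. Mreg cultures were never on a slide with other macrophages, MΦ_IFN-γ was never on a slide with MΦ_M0 or MΦ_M1, and MΦ_M2c never with MΦ_M0, so in comparisons between these, slide and group cannot be told apart. With slide as a random block, the IFN-γ call of Il1b was lost and no other call of a member was.

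IFN-γ raised the interleukin-18 inhibitor and both caspase genes in each culture. In Mreg against Mreg_no IFN-γ, 3 members rose (Il18bp, Casp1 and Casp4) and 1 fell (Il1rap), where 9.5% of the 17606 genes tested rose and 10.9% fell. The median log2 change was 0.12 over the members and -0.06 over all genes. In MΦ_IFN-γ against MΦ_M0, 5 members rose (those 3 with Il1b and Il18) and Il1rap fell, where 11% of genes rose and 11.1% fell, with medians of 1.16 and -0.01. The test of the difference between the IFN-γ responses called 0 members in limma, where 1.65% of genes were called, and only Il18bp had an unadjusted p below 0.05; with the replicate number as a block, Il18bp was called (adjusted p = 0.0138). Calls are at an adjusted p below 0.05 in limma, with Benjamini-Hochberg adjustment over all genes tested.

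LPS on top of IFN-γ raised most of the system. In Mreg_+LPS against Mreg, 8 members rose and 0 fell, where 31.9% of genes rose and 25.5% fell, with a median log2 change of 1.68 over the members and 0.17 over all genes. Il1a and Il1b, the ligands of the interleukin-1 receptor, moved furthest, and Il1rap and Il1r2 were not called. In MΦ_M1 against MΦ_IFN-γ, 8 members rose and Il1rap fell, where 27.9% of genes rose and 23.3% fell, with medians of 1.63 and 0.12. The LPS responses differed between the cultures for 4 members, Casp4, Il18, Il1rap and Il1rn, where 34.9% of genes differed. The first 3 had the more positive change in Mreg and Il1rn the larger rise in the M-CSF cultures, as the plot of LPS responses shows. Without Mreg replicate 2, only 2 members were called as differing, and the share of all genes called in that fit is not given here.

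**Figure D1:**
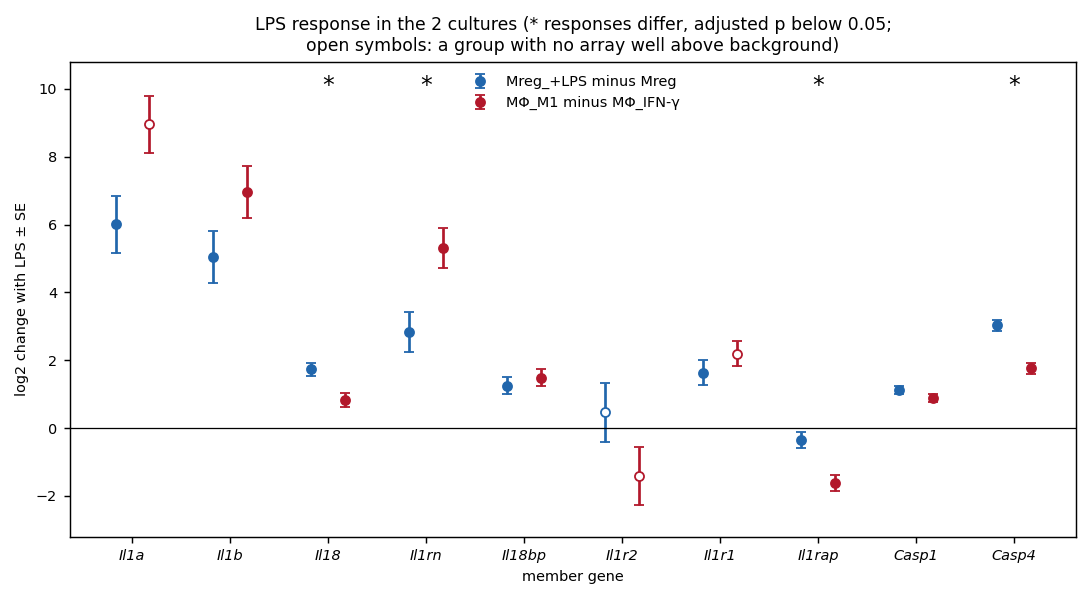
Fitted log2 change with LPS (vertical axis, ± SE) for each member gene (horizontal axis), Mreg_+LPS minus Mreg in blue and MΦ_M1 minus MΦ_IFN-γ in red, n = 3 arrays a group. Stars mark Il18, Il1rn, Il1rap and Casp4, whose responses differed; open symbols mark changes where at least 1 group had no array well above background, so that the fitted value is not a measured fold.

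The remaining comparisons moved part of the system, other than the immunoglobulin coating and Mreg_unpurified against Mreg, which called 0 members. IL-4 (MΦ_M2a against MΦ_M0) raised Il18bp, Il1r1 and Il1rap and lowered Il18, where 6.75% of genes rose and 5.79% fell. Only 2 members were called without MΦ_M2a replicate 1, a fit whose share of all genes called is not given here. Dexamethasone (MΦ_M2c against MΦ_M0) raised Il18, Il18bp, Il1r1 and Il1r2 and lowered Il1rn and Casp1, where 9.93% rose and 10.7% fell. The immunoglobulin coating (MΦ_M2b against MΦ_IFN-γ) gave 0 called members in limma, where 3.94% of genes were called; 3 members had an unadjusted p below 0.05, and the lowest adjusted p was 0.146, for Il1rn.

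Mreg against MΦ_IFN-γ, which differ in serum and M-CSF dose, had 2 members higher (Il1rn and Il1r1) and 4 lower (Il1b, Il1r2, Casp1 and Casp4), where 14% of genes were higher and 14% lower. The same cultures without IFN-γ (Mreg_no IFN-γ against MΦ_M0) had 4 higher (Il1a, Il1rn, Il18bp and Il1r1) and 3 lower (Il1b, Casp1 and Casp4), where 17.2% were higher and 13.7% lower. In MΦ_M0 against Monocytes, 3 members rose (Il18, Il1rn and Casp1) and 5 fell (Il1b, Il1r1, Il1r2, Il1rap and Casp4), where 30.2% of genes rose and 33.2% fell. In Mo-DC against MΦ_IFN-γ, 3 were higher (Il1a, Il1rn and Il1r1) and 4 lower (Il18, Il18bp, Casp1 and Casp4), where 22.4% and 25.1% of genes were. Mreg_unpurified against Mreg gave 0 called members in limma, and 0 at an unadjusted p below 0.05, where 12% of genes were called. In the plot of all fitted changes, the 2 caspase genes run together in the IFN-γ, LPS and culture columns and apart in MΦ_M0 against Monocytes. With dexamethasone Casp1 was called lower and Casp4 was not called.

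**Figure D2:**
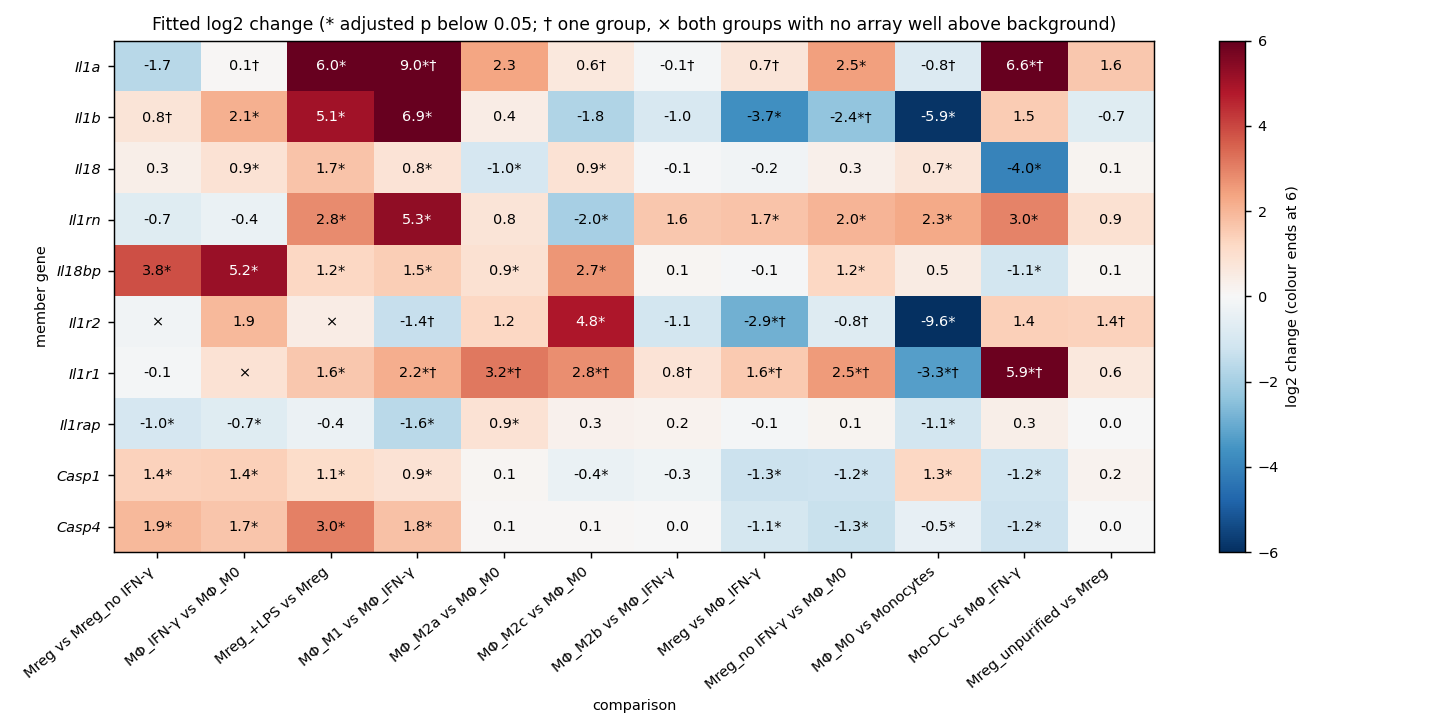
Fitted log2 change of each member (rows) in each of 12 comparisons (columns, first-named group minus second), red for higher and blue for lower in the first-named group. A star marks an adjusted p below 0.05 in limma, a dagger a comparison in which 1 group had no array well above background, and a cross one in which both had none; the immunoglobulin and unpurified columns hold no star.

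Il1b, the gene of interleukin-1β, was highest in MΦ_M1. Its levels were 6.05, 5.17 and 4.89 in MΦ_M1, against -1.93, -1.70 and -1.10 in MΦ_IFN-γ. In Mreg_+LPS they were -0.47, 1.08 and -1.29, against -4.40, -5.45 and -6.00 in Mreg, where 1 of 3 arrays was well above background. In both cultures every LPS array lay above every array without LPS. The log2 change was 6.95 ± 0.77 (SE) in the M-CSF macrophages (limma adjusted p = 2.23e-08), a 124-fold rise, and 5.05 ± 0.77 in Mreg (adjusted p = 2.68e-06), with per-slide differences of 6.52, 4.71 and 3.93. The test of the difference between these responses gave -1.89 ± 1.08 (adjusted p = 0.188), and -3.71 with an adjusted p of 0.000485 when background was corrected by normexp instead.

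Without LPS, Il1b was dim in the Mreg cultures. Mreg was lower than MΦ_IFN-γ by a log2 change of -3.70 ± 0.77 (limma adjusted p = 0.00054), with no overlap between arrays. Mreg_no IFN-γ had no array well above background, and MΦ_M0 had -2.11, -4.20 and -4.79. With each Mreg_no IFN-γ array set at a floor, its dimmest probe well above background, the group was 3.93-fold lower. Probes that are not well above background can be brighter than this floor, so such folds are not strict lower bounds. The limma fit to the measured levels gave an adjusted p of 0.0193. That call was lost without Mreg_no IFN-γ replicate 3 (adjusted p = 0.0586) and without MΦ_M0 replicate 1 (0.158). IFN-γ gave a log2 change of 2.12 ± 0.77 in the M-CSF macrophages (adjusted p = 0.047), but this call was lost without any 1 of the 3 MΦ_IFN-γ arrays or of MΦ_M0 replicates 2 and 3 (adjusted p 0.0727 to 0.229), and with slide as a random block (0.0628).

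The sorted Monocytes carried more Il1b than any culture other than MΦ_M1, at 1.14, 2.54 and 2.83. MΦ_M0 was lower by a log2 change of -5.87 ± 0.77 (limma adjusted p = 1.79e-07), and per-slide differences were -6.73, -7.62 and -3.25. The neutrophil marker sum was lower in the same comparison (given above), and its part in this result was not tested. Mo-DC had Il1b at 0.69, 1.04 and -1.87, overlapping MΦ_IFN-γ (adjusted p = 0.104); without Mo-DC replicate 3, the low array, the log2 change was 2.44 with an adjusted p of 0.012.

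Il1a, the gene of interleukin-1α, was at or near background outside the LPS cultures and Mo-DC. It stood at 2.52, 2.17 and 2.19 in MΦ_M1, while no MΦ_IFN-γ array was well above background. This put MΦ_M1 255-fold above the MΦ_IFN-γ floor (limma adjusted p = 1.3e-09 for the measured levels). Mreg_+LPS had -0.62, 0.93 and -0.09, against -7.55, -4.22 and -6.04 in Mreg, of which only the array at -4.22 was well above background. The log2 change was 6.01 ± 0.84 (adjusted p = 8.1e-07), and the 2 groups did not overlap. A second probe of the gene gave 5.63 ± 0.66 in Mreg.

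Mo-DC, which had received no LPS by the labels, had Il1a at 0.12, 0.08 and -0.35. This was 50.3-fold above the MΦ_IFN-γ floor (limma adjusted p = 3.11e-07 for the measured levels). All 3 Mo-DC arrays lay within the range of the Mreg_+LPS arrays. In Mreg_no IFN-γ all 3 arrays were well above background, at -5.53, -3.10 and -4.17. Mreg was lower in each of the 3 slides, by -1.12, -1.87 and -2.01; the fit over all arrays gave an adjusted p of 0.184, and the fit with the slide as replicate block gave 0.0171. The higher Il1a of Mreg_no IFN-γ against MΦ_M0 (log2 change 2.46 ± 0.84, adjusted p = 0.0275) rested on overlapping arrays and was lost without Mreg_no IFN-γ replicate 2 or 3 or MΦ_M0 replicate 2 or 3 (adjusted p 0.0639 to 0.166).

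Il18 was well above background on all 36 arrays and followed another order than the interleukin-1 genes. Levels were 3.29, 2.87 and 2.97 in Mreg_+LPS, against 1.48, 1.00 and 1.48 in Mreg. They were 2.31, 2.30 and 2.40 in MΦ_M1, against 1.32, 1.53 and 1.71 in MΦ_IFN-γ. Mreg_+LPS was the highest of the 12 groups and did not overlap MΦ_M1, the next. The log2 changes with LPS were 1.73 ± 0.21 in Mreg (limma adjusted p = 5.46e-08) and 0.82 ± 0.21 in the M-CSF macrophages (0.00154). They differed by 0.91 ± 0.29 (adjusted p = 0.0156), a call lost without Mreg replicate 2 (0.0551) or Mreg_+LPS replicate 1 (0.0506), and with quantile normalization (0.0539).

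Il18 was lowest in Mo-DC, where it stood at -2.63, -2.29 and -2.50, against 1.32, 1.53 and 1.71 in MΦ_IFN-γ. That is a 15.9-fold lower signal (log2 change -3.99 ± 0.21, limma adjusted p = 1.57e-14), and it was found on all 3 shared slides, at -3.82, -4.21 and -3.95. IL-4 lowered Il18 in the M-CSF macrophages. MΦ_M2a had -0.58, -0.32 and -0.23, against 0.49, 0.74 and 0.73 in MΦ_M0, with no overlap (log2 change -1.03 ± 0.21, adjusted p = 0.000973). Dexamethasone and IFN-γ each raised Il18 by 0.87 ± 0.21 over MΦ_M0 (adjusted p = 0.00292 and 0.00234), while in the Mreg culture IFN-γ gave 0.34 ± 0.21 (0.286).

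**Figure D3:**
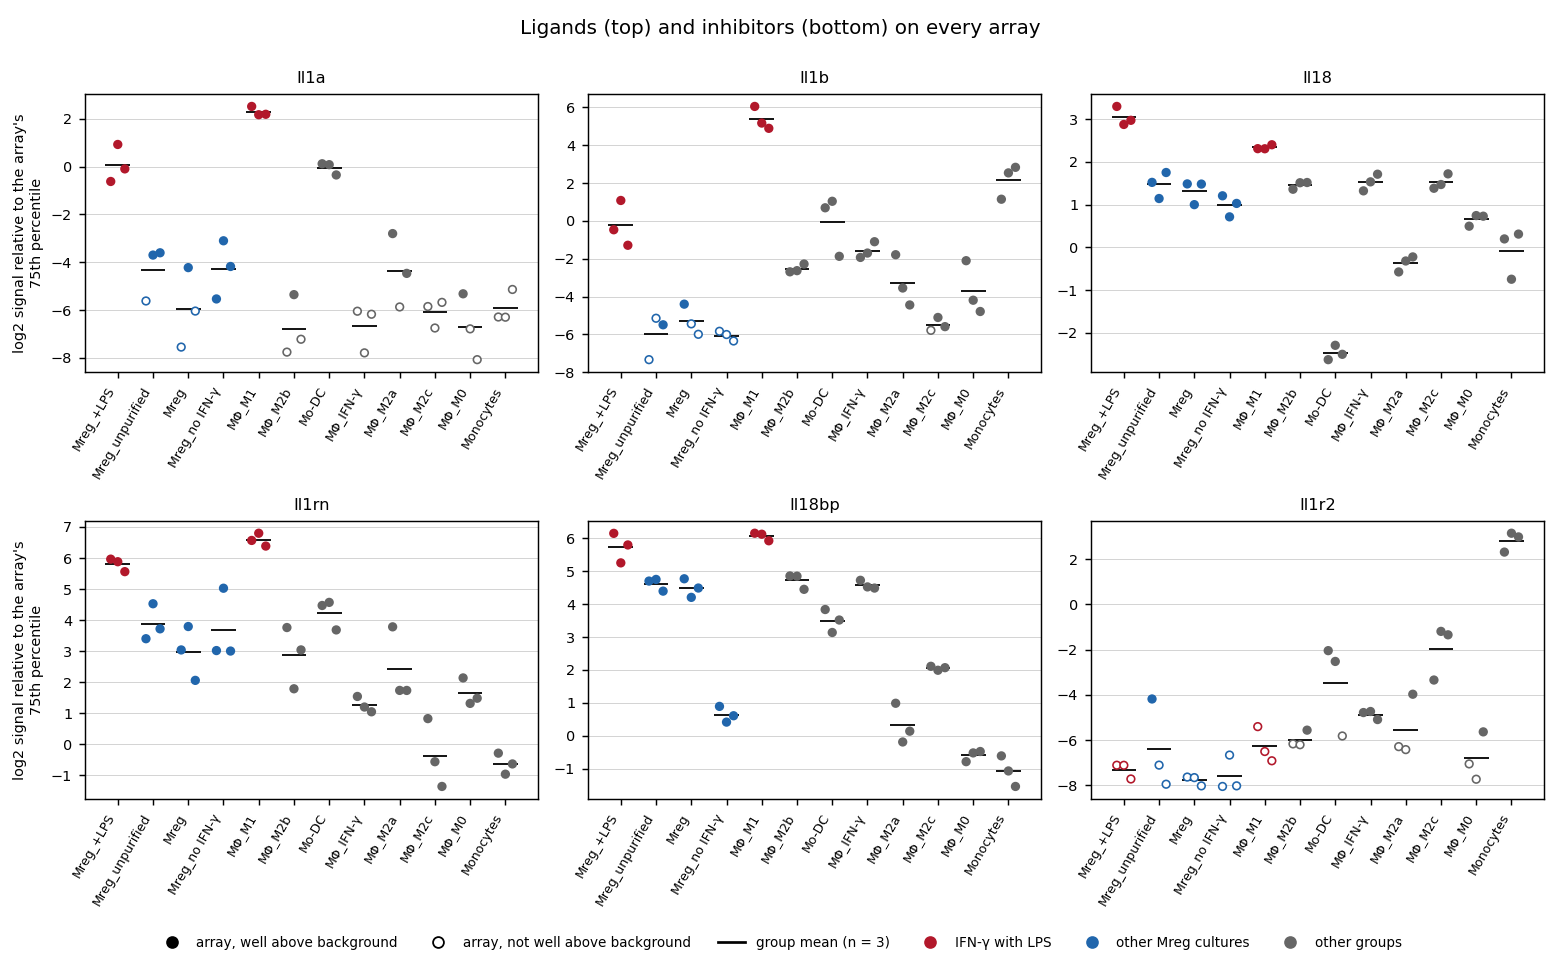
Log2 level relative to the 75th percentile of the array (vertical axis) of the ligand genes Il1a, Il1b and Il18 and the inhibitor genes Il1rn, Il18bp and Il1r2 in the 12 groups (horizontal axis). Points are arrays, filled where well above background, and bars are means of 3; MΦ_M1 is highest for Il1a, Il1b, Il1rn and Il18bp, Mreg_+LPS for Il18 and Monocytes for Il1r2.

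Il18bp, the gene of the interleukin-18 binding protein, gave the largest IFN-γ response of the 10 members in both cultures. Mreg had 4.77, 4.20 and 4.49, against 0.89, 0.42 and 0.61 in Mreg_no IFN-γ. MΦ_IFN-γ had 4.72, 4.52 and 4.49, against -0.79, -0.52 and -0.48 in MΦ_M0. The IFN-γ groups overlapped each other, whereas Mreg_no IFN-γ lay above MΦ_M0 on every array (log2 change 1.23 ± 0.25, limma adjusted p = 0.000427). The rise was 14.4-fold in Mreg (log2 change 3.85 ± 0.25, adjusted p = 7e-12) and 36.0-fold in the M-CSF macrophages (5.17 ± 0.25, adjusted p = 2.35e-14). The difference between these responses was -1.32 ± 0.36 with an adjusted p of 0.0547; with the replicate number as a block it was 0.0138, and a second probe, looked at after seeing the data, gave -1.47 ± 0.33 (0.0247).

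LPS added 1.25 ± 0.25 to Il18bp in Mreg (limma adjusted p = 0.000133) and 1.49 ± 0.25 in the M-CSF macrophages (1.76e-05). Dexamethasone, which involves no added IFN-γ, put it at 2.11, 1.99 and 2.07 in MΦ_M2c, against -0.79, -0.52 and -0.48 in MΦ_M0. The groups were well separated, with a 6.28-fold rise (log2 change 2.65 ± 0.25, adjusted p = 1.59e-08). IL-4 gave 0.91 ± 0.25 (adjusted p = 0.0162), lost without MΦ_M2a replicate 1 (0.19), without MΦ_M0 replicate 1 (0.077) and with the slide as replicate block (0.0789). Mo-DC stayed below MΦ_IFN-γ by -1.08 ± 0.25 (0.000867).

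Il1rn, the gene of the interleukin-1 receptor antagonist, rose with LPS alongside the ligands it opposes. Levels were 6.57, 6.80 and 6.39 in MΦ_M1, against 1.54, 1.20 and 1.05 in MΦ_IFN-γ. They were 5.96, 5.88 and 5.56 in Mreg_+LPS, against 3.04, 3.79 and 2.06 in Mreg. Neither pair overlapped, and every Mreg array lay above every MΦ_IFN-γ array. The log2 changes were 5.32 ± 0.59 in the M-CSF macrophages (limma adjusted p = 2.45e-08) and 2.84 ± 0.59 in Mreg (0.000178), and they differed by -2.48 ± 0.83 (0.0213). Without Mreg replicate 2, the highest Mreg array, the difference was -2.07 with an adjusted p of 0.0684. Mreg against MΦ_IFN-γ gave 1.70 ± 0.59 (adjusted p = 0.0315), which ranged from 0.0147 to 0.175 as single arrays were left out and was lost without Mreg replicate 1 or 2 or MΦ_IFN-γ replicate 2 or 3.

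Away from LPS, Il1rn was 4.47, 4.57 and 3.69 in Mo-DC, all above the MΦ_IFN-γ arrays (log2 change 2.98 ± 0.59, limma adjusted p = 0.000148). Mreg_no IFN-γ had 3.02, 5.03 and 3.00, against 2.14, 1.32 and 1.49 in MΦ_M0. The log2 change of 2.04 ± 0.59 (0.00917) rested in part on the array at 5.03, Mreg_no IFN-γ replicate 2, without which it was 1.36 (0.104). Dexamethasone put Il1rn at 0.83, -0.56 and -1.36 in MΦ_M2c, below every MΦ_M0 array (log2 change -2.01 ± 0.59, adjusted p = 0.0151). That call was lost without MΦ_M0 replicate 1 or MΦ_M2c replicate 2 or 3 (0.0539 to 0.117). A second probe gave -2.37 ± 0.58 (0.00393). MΦ_M0 exceeded Monocytes by 2.27 ± 0.59 (0.00146), the reverse of Il1b in the same comparison.

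Il1r2, the decoy receptor gene, was bright in Monocytes and dim nearly everywhere else. MΦ_M0 had -7.05, -7.73 and -5.63, of which 1 of 3 arrays was well above background, against 2.32, 3.15 and 2.99 in Monocytes. The log2 change of MΦ_M0 against Monocytes, -9.62 ± 0.86 (limma adjusted p = 1.72e-10), stood beside the same lower neutrophil marker sum, whose part was not tested. A second probe, with no MΦ_M0 array well above background, put Monocytes 144-fold above the MΦ_M0 floor. Dexamethasone raised Il1r2, with -3.34, -1.19 and -1.34 in MΦ_M2c, all above the MΦ_M0 arrays (4.85 ± 0.86, adjusted p = 0.000162). With normexp the adjusted p was 0.0704. On the second probe MΦ_M2c was 5.25-fold above the MΦ_M0 floor. Both Mreg and Mreg_no IFN-γ had no array well above background. The Mreg floor was 1.61-fold lower than MΦ_IFN-γ (adjusted p = 0.0118 for the measured levels). However, the second probe was below background in both groups, and the mean of both probes lost the call (0.0824).

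Il1r1, the signalling receptor chain, was highest in Mo-DC, at -1.13, -0.69 and -0.68, while no MΦ_IFN-γ array was well above background. Mo-DC was 29.2-fold above the MΦ_IFN-γ floor (limma adjusted p = 7.87e-13 for the measured levels). The call held under normexp as under the other settings. LPS raised Il1r1 in both cultures. Mreg_+LPS had -3.36, -3.89 and -3.42, against -5.40, -5.24 and -4.91 in Mreg, with no overlap (1.63 ± 0.37, adjusted p = 0.000469). MΦ_M1 was 2.22-fold above the MΦ_IFN-γ floor (adjusted p = 1.65e-05 for the measured levels).

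Other Il1r1 changes were measured against groups at background. MΦ_M2a was 2.32-fold and MΦ_M2c 1.77-fold above the MΦ_M0 floor (limma adjusted p = 1.03e-06 and 3.29e-06 for the measured levels). Mreg_no IFN-γ was 1.49-fold above the MΦ_M0 floor (6.24e-06) and Mreg 1.43-fold above the MΦ_IFN-γ floor (0.00213). The MΦ_M0 floor was 2.49-fold below Monocytes (1.33e-08). With normexp background correction all 5 of these calls, and the one for MΦ_M1, were lost (adjusted p 0.181 to 0.985).

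Il1rap, the accessory chain, was the only member that fell with IFN-γ in both cultures. Mreg had -2.96, -2.44 and -2.69, against -1.79, -1.48 and -1.84 in Mreg_no IFN-γ, with no overlap (log2 change -0.99 ± 0.23, limma adjusted p = 0.00268). In MΦ_IFN-γ the change against MΦ_M0 was -0.74 ± 0.23 (0.0212), which was lost without MΦ_IFN-γ replicate 1 or MΦ_M0 replicate 2 or 3 (0.0531 to 0.0933). A second probe, for the transcript labelled variant 2, gave -1.08 ± 0.20 and -0.69 ± 0.20 in these comparisons. IL-4 raised the gene on both probes, by 0.87 ± 0.23 and 1.06 ± 0.20 (0.0134 and 0.00049).

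The 2 Il1rap probes parted under LPS. The brighter probe, for a cDNA clone, had -3.59, -2.22 and -3.37 in Mreg_+LPS, against -2.96, -2.44 and -2.69 in Mreg, which overlapped (log2 change -0.36 ± 0.23, limma adjusted p = 0.191; -0.78 and 0.00107 without Mreg_+LPS replicate 2). The variant 2 probe had -0.92, -0.84 and -1.40 in Mreg_+LPS, against -2.90, -2.44 and -2.72 in Mreg, which did not overlap (1.63 ± 0.20, adjusted p = 5.78e-08). In MΦ_M1 against MΦ_IFN-γ the brighter probe gave -1.63 ± 0.23 (1.61e-06) and the variant 2 probe -0.45 ± 0.20 (0.0585). The variant 2 probe minus the brighter one was taken on each array. The group mean of this value rose with LPS by 2.00 log2 units in Mreg and 1.18 in the M-CSF macrophages, with no overlap between arrays in either. The exact two-sided permutation p was 0.1 in each, the smallest that 3 against 3 arrays allow, and 0.3 after adjustment over 12 comparisons. The difference of LPS responses was positive on both, 1.27 ± 0.33 (0.0036) and 2.08 ± 0.28 (1.66e-06).

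The probes were also compared between the cultures. Against MΦ_M0, Mreg_no IFN-γ gave 1.38 ± 0.20 on the variant 2 probe (limma adjusted p = 4.67e-06) and 0.15 ± 0.23 on the brighter probe (0.697). Against MΦ_IFN-γ, Mreg gave 0.99 ± 0.20 (0.000335) and -0.10 ± 0.23 (0.801). The other 3 Il1rap probes were well above background on 0 of 36 arrays, including the probe for the transcript labelled variant 1, so the form each culture used was not measured further. The group mean of the variant 2 probe minus the brighter one differed by 1.2 log2 units in the first of these comparisons and 1.1 in the second. Single arrays did not overlap in either (exact two-sided permutation p of 0.1 in each, 0.3 after adjustment). The 2 probes were set apart after their values were seen.

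**Figure D4:**
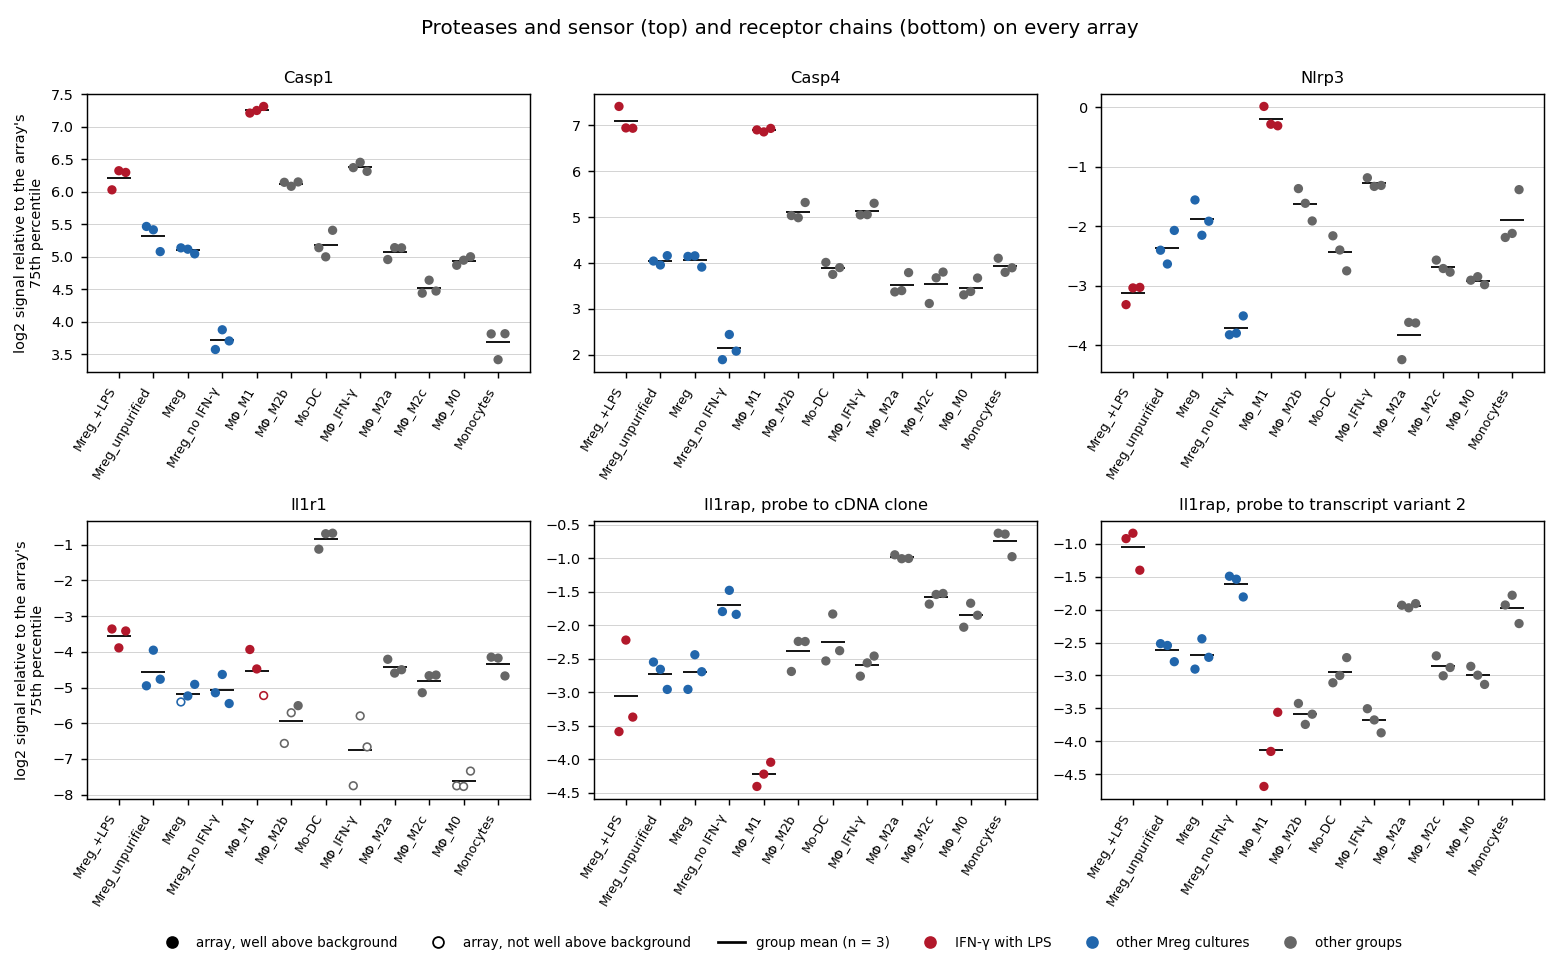
Log2 level relative to the 75th percentile of the array (vertical axis) of Casp1, Casp4, the sensor gene Nlrp3, Il1r1 and the 2 measured probes of Il1rap in the 12 groups (horizontal axis). Points are arrays, filled where well above background, and bars are means of 3; the variant 2 probe of Il1rap is highest in Mreg_+LPS, where the other probe lies at or below most groups.

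Casp1 and Casp4 were among the tightest measurements, with a mean SD within groups of 0.12 and 0.19 log2 units and all 36 arrays above background. Casp1 had 5.14, 5.12 and 5.04 in Mreg, against 3.57, 3.87 and 3.70 in Mreg_no IFN-γ, and 6.37, 6.45 and 6.31 in MΦ_IFN-γ, against 4.87, 4.95 and 5.00 in MΦ_M0. Neither pair overlapped. IFN-γ raised it by 1.38 ± 0.12 in Mreg (limma adjusted p = 1.35e-09) and 1.44 ± 0.12 in the M-CSF macrophages (5.25e-10). Mreg was 2.43-fold below MΦ_IFN-γ (log2 change -1.28 ± 0.12, 7.02e-09). LPS added 1.12 ± 0.12 in Mreg and 0.88 ± 0.12 in the M-CSF macrophages (6.81e-09 and 5.7e-07).

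Casp4 had the lowest adjusted p of the 4 members whose LPS responses differed. Levels were 7.41, 6.95 and 6.94 in Mreg_+LPS, against 4.14, 4.16 and 3.91 in Mreg. They were 6.90, 6.86 and 6.94 in MΦ_M1, against 5.05, 5.06 and 5.30 in MΦ_IFN-γ. The 2 LPS groups lay close together, and every Mreg array lay below every MΦ_IFN-γ array. The log2 change was 3.03 ± 0.17 in Mreg (limma adjusted p = 4.59e-14), an 8.16-fold rise, and 1.76 ± 0.17 in the M-CSF macrophages (1.56e-09), and the difference was 1.27 ± 0.24 (0.00013). IFN-γ raised Casp4 by 1.93 ± 0.17 in Mreg (1.83e-09) and 1.68 ± 0.17 in the M-CSF macrophages (1.68e-08). Mo-DC had both caspase genes below MΦ_IFN-γ, Casp1 by -1.20 ± 0.12 and Casp4 by -1.25 ± 0.17 (3.93e-09 and 7.31e-07). In MΦ_M0 against Monocytes they parted, with Casp1 at 1.26 ± 0.12 (4.52e-10) and Casp4 at -0.48 ± 0.17 (0.0144) and a Casp4 call lost without replicate 1 of either group (0.0712 and 0.0654).

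Casp1 and Casp4 are neighbours on chromosome 9, and the 250 bases before their RefSeq start sites (GRCm38.p6) are shown since the genes moved together with IFN-γ and LPS. All 10 members matched the RefSeq promoter table, with 14 windows of 300 bases. Each window was searched on both strands for GGGNNTTCC (a form of the NF-κB element), TTCNNNGAA (the GAS element) and GAAANNGAA (a form of the ISRE), chosen after the results were known and held by 5.82%, 8.30% and 8.56% of all 32851 windows. The capitals mark the GGGNNTTCC matches, of which the Casp4 stretch holds 2, 1 on each strand, and the Casp1 stretch 0.
Casp4 (chr9:5308599-5308848, + strand): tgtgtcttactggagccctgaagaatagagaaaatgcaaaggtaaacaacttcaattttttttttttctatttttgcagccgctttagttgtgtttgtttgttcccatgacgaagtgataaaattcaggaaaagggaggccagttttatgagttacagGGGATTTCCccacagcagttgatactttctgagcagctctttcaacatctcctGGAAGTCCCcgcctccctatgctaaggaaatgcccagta
Casp1 (chr9:5298267-5298516, + strand): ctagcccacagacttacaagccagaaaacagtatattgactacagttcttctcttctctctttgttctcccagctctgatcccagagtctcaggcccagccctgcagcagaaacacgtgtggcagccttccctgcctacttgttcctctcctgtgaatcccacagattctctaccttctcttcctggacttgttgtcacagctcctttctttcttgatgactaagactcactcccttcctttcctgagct
Among the other members, a window of Il1r1 held GGGNNTTCC, that of Il1r2 TTCNNNGAA and that of Il1rap GAAANNGAA, while Casp1, Il18, Il18bp, Il1a, Il1b and Il1rn held none of the 3 in these windows. Matches depend on the spelling: 2 longer spellings of the NF-κB element were tried as well, and Casp4 matched both, as did Il1rn. The share of all windows that hold those longer spellings is not given here, so these matches do not mark out either gene. A match is a run of letters and not a measured binding site.

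The wider pathway was read through 48 genes of the interleukin-1 family, inflammasomes and receptor signalling, of which 47 were on the array and 42 tested. LPS raised 19 and lowered 9 of them in Mreg, where 31.9% of all genes rose and 25.5% fell, and raised 22 and lowered 8 in the M-CSF macrophages, where 27.9% rose and 23.3% fell. IFN-γ raised 10 and lowered 6 in Mreg, where 9.5% rose and 10.9% fell, and raised 10 and lowered 5 in the M-CSF macrophages, where 11% rose and 11.1% fell. With LPS the shares of list genes lowered were below those of all genes in both cultures. With IFN-γ the share lowered was somewhat above that of all genes in Mreg and near it in the M-CSF macrophages. These shares were not tested. Differences of LPS response were called for 18 of the 42, 7 more positive in Mreg and 11 less so, where 18.5% and 16.5% of all genes were.

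Nlrp3, the sensor of the best-known inflammasome, moved in opposite directions with LPS. It had -3.32, -3.04 and -3.03 in Mreg_+LPS, against -1.56, -2.15 and -1.92 in Mreg, and 0.01, -0.29 and -0.31 in MΦ_M1, against -1.19, -1.33 and -1.32 in MΦ_IFN-γ. Neither pair overlapped, and the changes were -1.25 ± 0.20 and 1.08 ± 0.20, which differed by -2.33 ± 0.29 (limma adjusted p = 6.3e-07). IFN-γ itself raised Nlrp3 in both, by 1.83 ± 0.20 in Mreg and 1.63 ± 0.20 in the M-CSF macrophages. Pycard, the adaptor between sensor and caspase-1, fell with LPS by 0.73 in Mreg and by 2.04 in the M-CSF macrophages, whereas Gsdmd, the pore-forming substrate, rose by 1.01 ± 0.12 in Mreg and 1.17 ± 0.12 in the M-CSF macrophages. Myd88, the adaptor of the receptor, gave 0.29 ± 0.14 in Mreg (limma adjusted p = 0.0823) and 0.83 ± 0.14 in the M-CSF macrophages (2.4e-05).

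Other genes of the list changed as follows. Txnip, a regulator of thioredoxin, fell with LPS in Mreg by 4.96 on the log2 scale, and its responses differed by -3.92 ± 0.35 (limma adjusted p = 4.5e-09). Mefv, the pyrin gene, rose by 2.66 ± 0.40 in Mreg and 5.12 ± 0.40 in the M-CSF macrophages. Casp12 rose with IFN-γ in Mreg to 8.98-fold above the Mreg_no IFN-γ floor (1.4e-12 for the measured levels). It rose by 4.11 ± 0.27 in the M-CSF macrophages. Il1rl2, the interleukin-36 receptor gene, was higher in Mo-DC than in MΦ_IFN-γ by 7.04 ± 0.66 (1.8e-09). Il1rl1, the receptor gene for interleukin-33, rose with IL-4 by 2.51 ± 0.47 (0.000525). Il33, the ligand gene, had 3.59, 3.77 and 2.75 in Mo-DC and no MΦ_IFN-γ array well above background. It passed the filter on dim probes almost wholly through Mo-DC, so this is a description without a test.

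Naip1, the gene of a sensor of bacterial proteins, rose with LPS by 4.92 ± 0.49 in the M-CSF macrophages (limma adjusted p = 4.1e-09) and by 1.96 ± 0.49 in Mreg (0.00128). Only 1 of 3 MΦ_IFN-γ arrays was well above background for Naip1, against 3 of 3 in Mreg, so the first value was measured from near background. Serpinb1a, which encodes an inhibitor of neutrophil proteases, was higher in Mreg than in MΦ_IFN-γ by 4.74 ± 0.52 (1.29e-07) and lower in MΦ_M0 than in Monocytes by -7.56 ± 0.52 (8.65e-13), beside the lower neutrophil marker sum. Il18rap, a chain of the interleukin-18 receptor, was lower in MΦ_M0 than in Monocytes by -5.57 ± 0.62 (1.2e-08), with 1 of 3 MΦ_M0 arrays well above background. Il18r1, the other chain, averaged -1.55 ± 0.42 in Monocytes (SD, n = 3) and was well above background on no cultured array, so it passed the filter through Monocytes and is described without a test. The summed signal of 8 T and NK cell markers was 0.31 to 0.35 in MΦ_M0, against 1.01 to 1.61 in Monocytes, with 4 of 8 on all 3 MΦ_M0 arrays, against 7 of 8 in Monocytes. Its part in the receptor values was not tested.

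Over the 12 group means, the genes with the pattern most like a member's were found among 12146 candidates, as a description with n = 12 groups that share their arrays. For Il1b this was Nfkb1 (Pearson r = 0.976), for Il18bp Pkn3 (0.991), for Casp1 Parp11 (0.987) and for Casp4 Pml (0.975). For Il1rn it was Arpc5 (0.964), for Il18 Bco2 (0.946), for Il1a Atg4a (0.943), for Il1rap Usp2 (0.941) and for Il1r1 zfp507 (0.888). Il1a had 3 groups with no array well above background, Il1r1 had 2 and Il1b had 1, so their correlations rest in part on background values.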

How the data were processed

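Cells of each group were profiled on single-colour Agilent arrays (design mapped to mm8, per the file headers). Per the file headers, spot intensity was extracted, background-subtracted and flagged with Feature Extraction 10.5.1.1. The deposited series table holds log2 values by the authors, whose normalization is not given in the sources used here; it was used as an alternative, since its columns correlated with the scanner values at 0.997 or more. From the deposited intensity (gProcessedSignal), spots of a probe were averaged on the log2 scale and the 75th percentile of each array was subtracted. Control spots and 3533 flagged spots were left out. The filter kept a probe if 3 or more of the 36 arrays had it well above background, the brightest probe stood for its gene, and limma 3.58.1 in R 4.3.3 fitted 12 group means with 24 residual degrees of freedom. Benjamini-Hochberg adjustment ran over all genes of each of 12 comparisons and 2 differences of responses, at a threshold of 0.05. Where no array of a group was well above background, each was set at a floor, its dimmest probe well above background, to give a fold. Probes that are not well above background can be brighter. Il1a was one such probe on Monocytes replicate 3, at -5.14, where the floor was -5.31. A floor fold is therefore not a strict lower bound, and the limma p-values rest on levels without this floor. Gene names came from accessions for 24375 probes, from symbols for 8727 and from the files for 8072 of 41174.

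Members and lists were chosen with earlier results of these data known. Named pathway genes are the up to 5 called list genes of a comparison with the largest change of at least 2-fold, with Nlrp3, Pycard, Myd88, Gsdmd and Il18rap, and of these the ones given with values were picked after their values were seen; genes alike in pattern are those with the highest correlation, for members well above background on at least 18 arrays. The arrays' number limits the precision. Replicate numbers follow the sample titles. Every replicate 1 array was scanned on 1 of 2 days and all other arrays on the other day. A deviation shared by replicate 1 arrays therefore cannot be told apart from scan day, and the alternative of 1 scan day leaves out replicate 1. Same-numbered arrays deviated together in every pair (correlation over 0.1) for both IFN-γ and both LPS comparisons, IL-4, dexamethasone and the immunoglobulin coating, with a lowest value of 0.105, and not in the others. The pipeline was tested on simulated data. Alternatives were normexp with an offset of 50, quantile normalization, 2 other filters, the mean of all probes, the series table, the replicate number or slide as a block, 1 scan day, and leaving out each array.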

Additional observations from a re-analysis of the deposited data

Results flagged for a closer look

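The test of the difference between the LPS responses in limma (Mreg_+LPS minus Mreg, less MΦ_M1 minus MΦ_IFN-γ) called 4 of 10 members, a share near the 34.9% of all genes tested that it called, so the count does not mark out the members. Il18 gave 0.91 ± 0.29 (adjusted p = 0.0156), Il1rap gave 1.27 ± 0.33 (0.0036) and Casp4 gave 1.27 ± 0.24 (0.00013), so their change was more positive in Mreg. Il1rn gave -2.48 ± 0.83 (0.0213), so its rise was smaller in Mreg.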

How the results depend on the processing

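Over all members, comparisons and other settings, 1259 values kept direction and side of the threshold, 28 lost the call, 26 gained it and 3 reversed; over single left-out arrays 918 kept it, 32 lost it and 10 gained it. The reversals were Il1rap with LPS in Mreg under the mean of all probes (0.64, adjusted p = 0.00346), and Il1r1 under normexp with IL-4 (-0.073) and dexamethasone (-0.24), which lost their calls; the cause was not tested. Counts of members called moved as follows. The shares of all genes called under these settings are not given here, so the moves may not be particular to the members. For IL-4 it was 2 with normexp, 2 on 1 scan day, and 2 to 5 without single arrays. For dexamethasone it was 3 with normexp, and for the culture without IFN-γ 4. For the immunoglobulin coating it was 1 (Il1rn) with slide as a random block. For the difference of IFN-γ responses it was 1 (Il18bp) under the series table, the 18-array filter, the mean of probes, quantile normalization, the replicate block and slide as a random block. For the difference of LPS responses it was 2 to 5 without single arrays. For unsorted against sorted Mreg it was 1 (Il1a, adjusted p = 0.0417) with the replicate block equal to the slide, though in that comparison same-numbered arrays did not all deviate together. The replicate block also called Il18bp in MΦ_M0 against Monocytes (0.48, adjusted p = 0.0436). Members near background (Il1a, Il1b in Mreg, Il1r1 and Il1r2) depend most on the background correction, with 3 arrays a group.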
